A study of Arabidopsis thaliana with 6 samples.

Results

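UDP-glycosyltransferases (UGTs) move a sugar, most often glucose, from a UDP-sugar onto a small molecule. In plants the numbered UGT families act on hormones, phenylpropanoids, flavonoids, sterols and foreign chemicals, and the sugar usually makes the product more soluble, less reactive and fit for storage in the vacuole. Roots use these enzymes to hold hormone and lignin precursors in inactive form and to detoxify compounds taken up from the medium. Here 46 UGT genes of 11 families were followed, out of 13356 genes that have a probe set of their own name. They are all genes with a UGT symbol and number that the array annotation names alone on a probe set, apart from UGT74B1, which was left out by the choice of members, and each is measured by 1 probe set of the 22810 on the array. A further 3 probe sets shared by a UGT gene and another gene were not used. The name of every member probe set ends in the form that the manufacturer gives to probes meant for a single gene (46 of 46).

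The samples were roots of Arabidopsis thaliana, accession Col-0, grown in hydroponic solution for 4 weeks. One group was exposed to 200 µM cadmium, a toxic heavy metal, for 6 h, and the other is labelled control. Each group has 3 Affymetrix ATH1 arrays, with replicate numbers 1 to 3 that the labels call biological, so p-values measure the spread between these arrays, whose number limits precision. Values are the deposited MAS5 signals on a linear scale, and differences are log2, arrays labelled cadmium minus arrays labelled control.

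The arrays of replicate 2 stand apart, so counts are given with and without them, and each gene's replicate 2 difference stands beside that of replicates 1 and 3 where a call rests on it. Their 2% trimmed mean signal was 227 on the cadmium and 216 on the control array, against 500 on each of the other 4 arrays. Of 6 RNA quality controls, 5 had their highest 3' to 5' ratios on these arrays; the 3' signal of a GAPDH control, for one, exceeded its 5' signal by 1.67 (log2) on the cadmium and 2.02 on the control array of replicate 2, and was between -0.60 and -0.19 elsewhere. Replicate 2 also ran opposite to the others: across the 15909 probe sets tested, its differences correlated with r = -0.68 with those of replicate 1 and r = -0.63 with those of replicate 3, whereas replicates 1 and 3 correlated with r = 0.77. These are correlations across genes, which are not independent. Whether labels were exchanged in any pair was not tested. Every direction, and the test over all 6 arrays, takes the labels as given, and an exchange would turn the sign of that pair. The root-specific glucosidase PYK10 was bright on all arrays (12364, 3450.4 and 12674 on cadmium arrays 1, 2 and 3, and 12846, 5157 and 10871 on the control arrays). RCA, the Rubisco activase of green tissue, was also detected, at 1669, 308 and 1353 on the cadmium arrays and 1474, 261 and 1223 on the control arrays.

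Of the 46 genes, 26 had a mean signal of at least 73.0, the 30th percentile of all probe sets, and were tested; 20 were not. Within replicates 1 and 3, 3 of the 26 were lower on the cadmium arrays and 0 were higher (limma, Benjamini-Hochberg adjusted p under 0.05). Over all probe sets tested, 3.24% were lower and 1.29% higher, 4.53% in all. The split moved with the scaling, from 516 lower and 205 higher probe sets to 681 and 110 with median centring. At an unadjusted p under 0.05, 4 UGT genes were lower and 2 higher, against 9.07% and 15.3% of all probe sets. The 3 genes that fell were UGT73B4, UGT73B5 and UGT87A2. The remaining 23 had differences between -1.03 and 1.49 with adjusted p from 0.0750 to 0.969. With a term for replicate number added to this fit, 9 UGT genes passed (2 higher and 7 lower). So did 3521 of the 15909 probe sets tested (2012 higher and 1509 lower). The UGT genes as a whole sat near zero in replicates 1 and 3, with a median of -0.05 over the 26 tested; all tested probe sets together had a median of 0.22. In bulk roots, fewer cells of a type and less RNA per cell cannot be told apart.

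Over all 6 arrays 0 of the 26 UGT genes passed the threshold in limma (adjusted p = 1 for each), as did 0% of all tested probe sets. At an unadjusted p under 0.05 the counts were 0 UGT genes and 84 probe sets (0.528%). The lowest unadjusted p among the UGT genes was 0.0944, for UGT73B4 at -2.34 ± 1.32 (SE, n = 3 arrays a group, limma across all genes). The 6-array differences were -0.92 ± 1.02 for UGT73B5, -0.42 ± 0.82 for UGT87A2 and -0.03 ± 0.77 for UGT76D1 (SE).

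The test of whether replicate 2 differed from replicates 1 and 3 was passed by 4 of 26 UGT genes, with a more positive difference in replicate 2 for 4 and a more negative one for 0. Of all probe sets 8.93% passed it, 5.09% with the more positive and 3.85% with the more negative difference (809 and 612 probe sets, and 944 and 297 with median centring). At an unadjusted p under 0.05, 2 UGT genes had the more negative difference, as had 18.8% of all probe sets. The 4 genes were UGT73B4, UGT73B5, UGT87A2 and UGT76D1. The fit takes its spread from replicates 1 and 3 alone, so the lone arrays of replicate 2 are assumed to vary like the others, and it was planned with the opposition of replicate 2 already known.

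**Figure D1:**
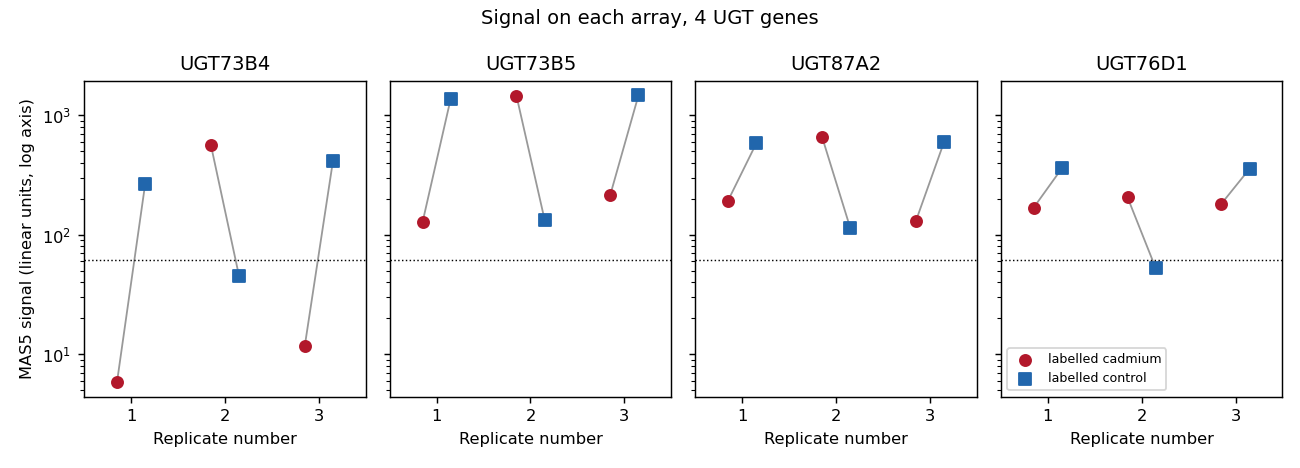
MAS5 signal (linear units on a log axis) of 4 UGT genes on each of the 6 arrays, by replicate number, with cadmium arrays as circles on the left and control arrays as squares on the right of each pair. The dotted line is 62.1, the 30th percentile of all signals; in replicates 1 and 3 the cadmium array is the dimmer of each pair, and in replicate 2 the brighter.

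Family 73 held the widest differences. UGT73B5 (AT2G15480) and UGT73B4 (AT2G15490) are adjacent genes known for their induction by pathogens, oxidative stress and salicylic acid, and UGT73B4 also acts on the explosive residue TNT. UGT73B5 had signals of 127, 1467 and 216 on cadmium arrays 1, 2 and 3, against 1375, 134 and 1470.4 on the control arrays. The groups overlap over all 6 arrays, since the low values belong to the cadmium arrays of replicates 1 and 3 and to the control array of replicate 2. Replicates 1 and 3 gave a difference of -3.10 ± 0.31 (SE, log2, limma adjusted p = 0.0170), or 8.58-fold lower UGT73B5 signal on the arrays labelled cadmium, while in replicate 2 the difference was 3.45. The replicate 2 difference exceeded that of replicates 1 and 3 by 6.55 ± 0.54 (adjusted p = 0.0137).

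UGT73B4 had signals of 5.80, 567 and 11.7 on the cadmium arrays, against 264, 45.3 and 412 on the control arrays. The 3 lowest signals again came from the cadmium arrays of replicates 1 and 3 and the control array of replicate 2, and all 3 lie under 62.1, the 30th percentile of all signals. With lower signals set to that value, the gene was at least 5.32-fold lower in replicates 1 and 3 (adjusted p = 0.0330, and 0.0262 as deposited) and its floored log2 difference in replicate 2 was at least 3.19. The replicate 2 difference exceeded the others by 8.97 ± 0.89 as deposited (adjusted p = 0.0158) and by at least 5.60 with the floor (adjusted p = 0.0163). UGT73B4 passed the filter on mean signal only through its bright arrays. Its call in replicates 1 and 3 ended without control replicate 1 (adjusted p = 0.0688), without control replicate 3 (adjusted p = 0.0967) and with the filter at the 50th percentile (adjusted p = 0.0964).

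The other tested gene of family 73, UGT73B1, whose enzyme acts on flavonoids in vitro, had signals of 129, 80.7 and 319.6 on the cadmium arrays and 61.0, 106 and 172 on the control arrays. Its direction was opposite to that of UGT73B4 and UGT73B5 in each replicate, at 1.08, -0.39 and 0.89, but the difference in replicates 1 and 3 did not pass (0.99 ± 0.67 SE, adjusted p = 0.409). UGT73C1, UGT73C2, UGT73C7 and UGT73D1 were too dim to test, with 104 as their highest signal on any array. UGT73C7, an enzyme of hydroxycinnamate glucosides, had 22.9, 75.8 and 39.3 on the cadmium arrays and 74.0, 21.4 and 104 on the control arrays, the same arrangement as UGT73B5 close to the floor.

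UGT87A2 (AT2G30140), the single member of family 87 here and a gene linked to flowering time and abiotic stress tolerance, followed the same arrangement. Its signals were 193, 664 and 130.2 on the cadmium arrays and 582, 115 and 598 on the control arrays, none of them under 62.1. Replicates 1 and 3 gave -1.89 ± 0.28 (SE, log2, limma adjusted p = 0.0344), or 3.72-fold lower signal on the arrays labelled cadmium, and in replicate 2 the difference was 2.53, more positive by 4.42 ± 0.47 (adjusted p = 0.0169). The call in replicates 1 and 3 ended without cadmium replicate 1 (adjusted p = 0.0726), cadmium replicate 3 (adjusted p = 0.130) or control replicate 1 (adjusted p = 0.0515).

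In family 76, UGT76D1, which glucosylates dihydroxybenzoic acids formed from salicylic acid, had 169, 206 and 182 on the cadmium arrays and 359, 52.6 and 357 on the control arrays. It did not pass in replicates 1 and 3 (-1.03 ± 0.23 SE, adjusted p = 0.0750), although median centring of the arrays took it past the threshold (adjusted p = 0.0444). The replicate 2 difference was more positive by 3.0 ± 0.39 (adjusted p = 0.0225). With the floor this was at least 2.76 (adjusted p = 0.0304). Without cadmium replicate 1 or cadmium replicate 3 this last test was passed by 3 of the 4 genes, UGT76D1 being the one lost.

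Also in family 76, UGT76B1, which glucosylates isoleucic acid, salicylic acid and N-hydroxypipecolic acid, had 1173, 274 and 1057 on the cadmium arrays and 762, 373 and 1801 on the control arrays, with differences of 0.62, -0.45 and -0.77. UGT76C2 and UGT76C1 glucosylate cytokinins on a ring nitrogen. UGT76C2 had 229, 209 and 225 on the cadmium arrays and 226, 286 and 196 on the control arrays (0.11 ± 0.24 SE in replicates 1 and 3, adjusted p = 0.807). UGT76C1 had a difference of -0.10 ± 0.36 SE (adjusted p = 0.879). UGT76E1, UGT76E2, UGT76E11 and UGT76E12 were not tested, and their signals ran up to 86.0; UGT76E1 and UGT76E11 had the signs of UGT76D1 in each replicate with every signal under 62.1.

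**Figure D2:**
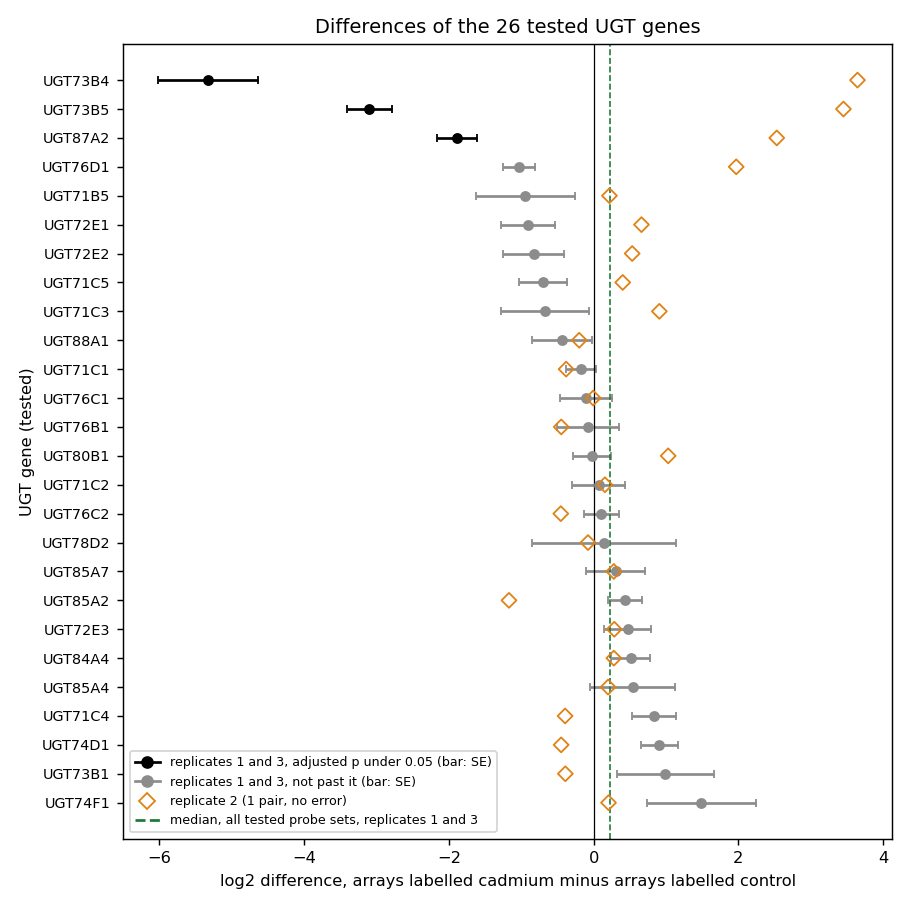
Log2 difference, arrays labelled cadmium minus arrays labelled control, of the 26 tested UGT genes. Filled points with SE bars are replicates 1 and 3 (black past an adjusted p of 0.05), open diamonds are the single pair of replicate 2, and the dashed line is the median of all tested probe sets in replicates 1 and 3, 0.22; the genes with the lowest filled points have the highest diamonds.

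In family 72, the UGT72E enzymes make glucosides of monolignols, the building blocks of lignin. UGT72E2, the main enzyme of coniferyl alcohol glucoside in roots, had 2605, 1766 and 1435 on the cadmium arrays and 4686, 1221 and 2510.0 on the control arrays. UGT72E1 had 1545, 742 and 929 on the cadmium arrays and 2919, 469 and 1718 on the control arrays. Both had differences close to each other in replicates 1 and 3 (-0.83 ± 0.42 SE and -0.90 ± 0.37 SE) and the opposite sign in replicate 2 (0.53 and 0.66). Neither passed in the main fit (adjusted p = 0.292 and 0.219). With a term for replicate number added to the limma fit, both did (adjusted p = 0.00884 and 0.00919). UGT72E3 had 162, 249 and 248 on the cadmium arrays and 155, 204 and 136 on the control arrays, and was higher on the cadmium array of each replicate by 0.07, 0.29 and 0.87 (adjusted p = 0.412 in replicates 1 and 3). UGT72B3 was too dim to test, with 121, 62.7 and 83.7 on the cadmium arrays and 36.2, 45.4 and 12.2 on the control arrays. Its groups did not overlap over the 6 arrays, which by itself fixes the exact two-sided permutation p at 0.1, the smallest possible. With the floor its differences were 0.96, 0.01 and 0.43.

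Family 71 was the largest, with 6 of 9 members tested and 0 past the threshold. UGT71C1, an enzyme active on hydroxycinnamates and flavonoids in vitro, had 1490.4, 419 and 1749 on the cadmium arrays and 1961, 545 and 1694 on the control arrays, a difference of -0.17 ± 0.21 SE in replicates 1 and 3 (adjusted p = 0.634). UGT71C4 had 417, 131 and 649 on the cadmium arrays and 258, 172 and 329 on the control arrays, the widest positive difference of the family in replicates 1 and 3 (0.84 ± 0.30 SE, adjusted p = 0.181). UGT71B5 had 33.0, 225 and 30.2 on the cadmium arrays and 61.1, 194 and 60.5 on the control arrays. All 4 of its signals in replicates 1 and 3 lie under 62.1, so its difference there (-0.95 ± 0.68 SE, adjusted p = 0.435) is given with no fold. UGT71B5 passed the filter on mean signal only through the arrays of replicate 2. UGT71C5, an abscisic acid glucosyltransferase, had -0.70 ± 0.33 SE (adjusted p = 0.265), and UGT71C3, which acts on methyl salicylate, had -0.67 ± 0.61 SE (adjusted p = 0.535). UGT71C2 had 0.07 ± 0.36 SE and turned negative with quantile normalization or median centring (-0.16 and -0.19), the second of which lowers every difference in replicates 1 and 3 by one amount. UGT71B1, UGT71B6 (an abscisic acid glucosyltransferase) and UGT71B8 were not tested.

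The members of family 74 were higher on the cadmium arrays of replicates 1 and 3 without passing the threshold. UGT74F1 makes salicylic acid glucoside. Its signals were 109, 84.1 and 104 on the cadmium arrays and 19.9, 72.9 and 72.1 on the control arrays, and it was the 1 UGT gene of the 26 whose groups did not overlap over all 6 arrays (of all tested probe sets 1.08% did not, 0.71% being higher). An exact two-sided permutation test over the 6 arrays gave p = 0.1, the smallest that 3 against 3 arrays allow. Groups that do not overlap always give this value, so it adds nothing to the non-overlap. The signals lie close to 62.1, and the floored differences were 0.81, 0.21 and 0.53. UGT74D1, which glucosylates auxin-related acids, had 451, 95.8 and 435 on the cadmium arrays and 200.3, 131 and 278 on the control arrays (0.91 ± 0.26 SE in replicates 1 and 3, adjusted p = 0.119), with -0.45 in replicate 2.

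In family 85, 3 of 5 members were tested. UGT85A2 had 543, 174 and 691 on the cadmium arrays and 424, 391 and 483 on the control arrays, with 0.44 ± 0.24 SE in replicates 1 and 3 (adjusted p = 0.315) and -1.17 in replicate 2; the difference between these did not pass (adjusted p = 0.0716). UGT85A4 had 92.8, 85.2 and 162 on the cadmium arrays and 53.0, 74.1 and 135 on the control arrays (0.54 ± 0.59 SE, adjusted p = 0.606). UGT85A7 was higher on the cadmium array of each replicate by 0.26, 0.28 and 0.35, within its error (0.30 ± 0.40 SE, adjusted p = 0.671).

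Families 78 and 84 were mostly dim. UGT78D2, the flavonoid 3-O-glucosyltransferase, had 567, 109 and 208 on the cadmium arrays and 822, 115 and 117 on the control arrays, with signs that differ between replicates 1 and 3 (-0.53 and 0.83). UGT78D1 and UGT78D3, which add rhamnose and arabinose to flavonols, were under 62.1 on all 6 arrays. UGT84A4, an enzyme of hydroxycinnamate glucose esters, had 431, 174 and 337 on the cadmium arrays and 234, 143 and 305 on the control arrays, higher on the cadmium array of each replicate (0.51 ± 0.27 SE in replicates 1 and 3, adjusted p = 0.299). UGT84A1 and UGT84A3, of the same function, and UGT84B1 and UGT84B2, of which the first acts on auxin, were not tested. UGT84B1 had 7.70, 140.1 and 4.87 on the cadmium arrays and 6.48, 94.1 and 5.45 on the control arrays, so that only replicate 2 was above the floor.

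UGT80B1, a sterol glucosyltransferase, had 244, 223 and 263 on the cadmium arrays and 218, 109 and 303 on the control arrays, with the widest difference in replicate 2 (1.03). UGT88A1 was lower on the cadmium array of each replicate, with log2 differences of -0.12, -0.20 and -0.75 (-0.44 ± 0.41 SE in replicates 1 and 3, adjusted p = 0.545).

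**Figure D3:**
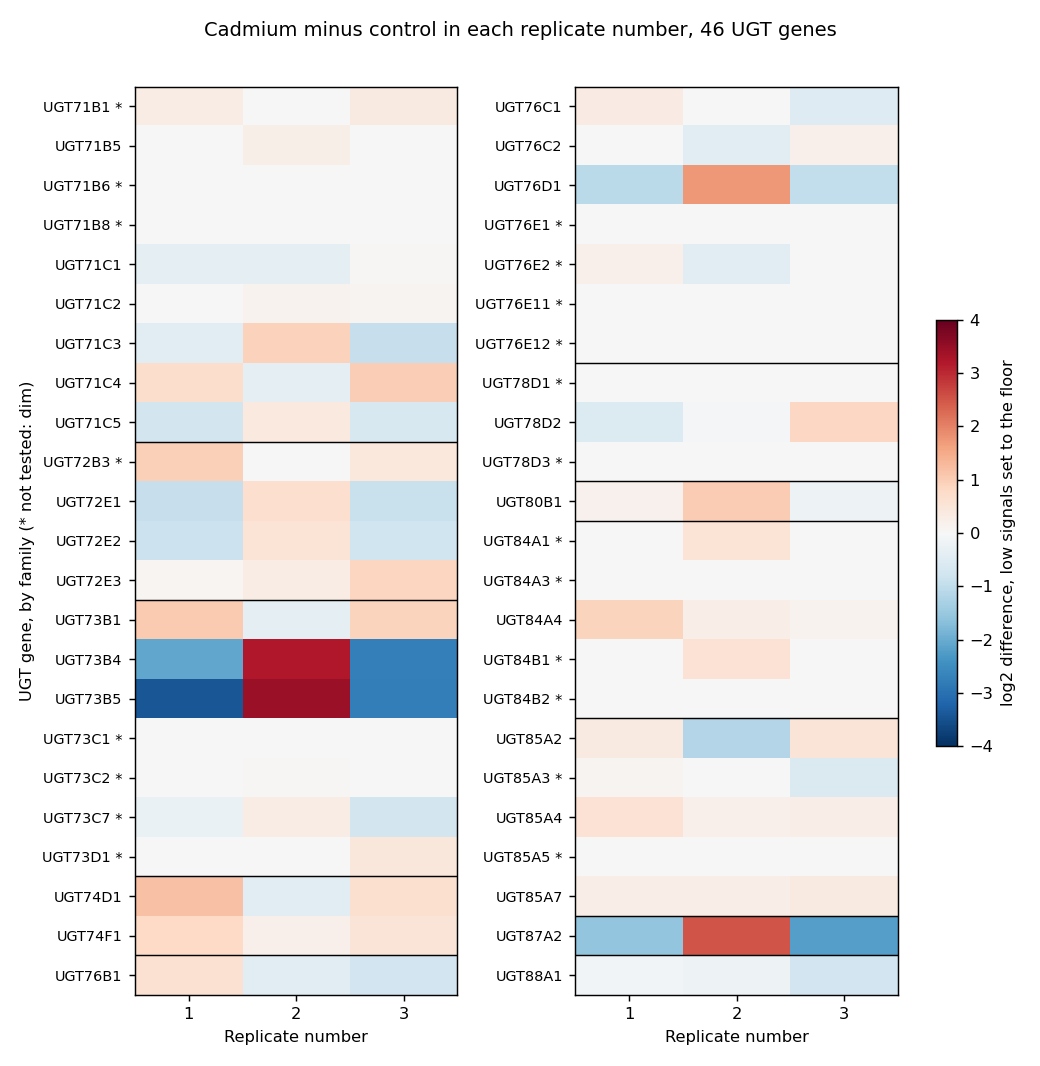
Log2 difference, cadmium minus control, of all 46 UGT genes (rows, grouped by family) in each replicate number (columns), with signals under 62.1 set to that value; a star marks the 20 genes too dim to test. UGT73B4, UGT73B5 and UGT87A2 carry the deepest colours, blue in replicates 1 and 3 and red in replicate 2. Most starred genes are near white, where the floor leaves dim genes little room to differ.

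The 20 genes that were not tested had mean signals of 8.69 to 67.6, and 11 of them were under 62.1 on all 6 arrays. With signals floored, 0 of the 20 differed 2-fold or more in any replicate. Their highest signal on any array was 140.1, so the floor left most of them no room for such a difference. The count therefore does not show that these genes were unchanged. Nearest to the filter were UGT71B1 at a mean of 67.6 and UGT72B3 at 60.1 below it, and UGT74F1 at 77.0 and UGT85A7 at 92.5 above it.

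Of the 26 tested genes, 14 (53.8%) had replicates 1 and 3 alike and replicate 2 opposed, against 59.7% of all tested probe sets. In 7 (26.9%) the 3 replicates had the same sign, against 17.3%, and 5 had replicates 1 and 3 unlike. The shares are those of 26 genes and were not tested. The groups of replicates 1 and 3 did not overlap for 7 higher and 7 lower UGT genes (53.8% in all), while 40.8% of all tested probe sets were higher and 16.9% lower by that count (57.7% in all). A difference of at least 2-fold was met by 3 higher and 4 lower UGT genes in replicate 1 (12% and 8.17% of all probe sets), 5 and 1 in replicate 2 (9.23% and 10.2%), and 0 and 4 in replicate 3 (8.15% and 8.1%). Differences stayed within 2-fold in every replicate for 16 of 26 UGT genes (61.5%, against 65.9% of all tested probe sets). They were at least 2-fold in every replicate for 3, UGT73B4, UGT73B5 and UGT87A2 (11.5%, against 6.12%).

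**Figure D4:**
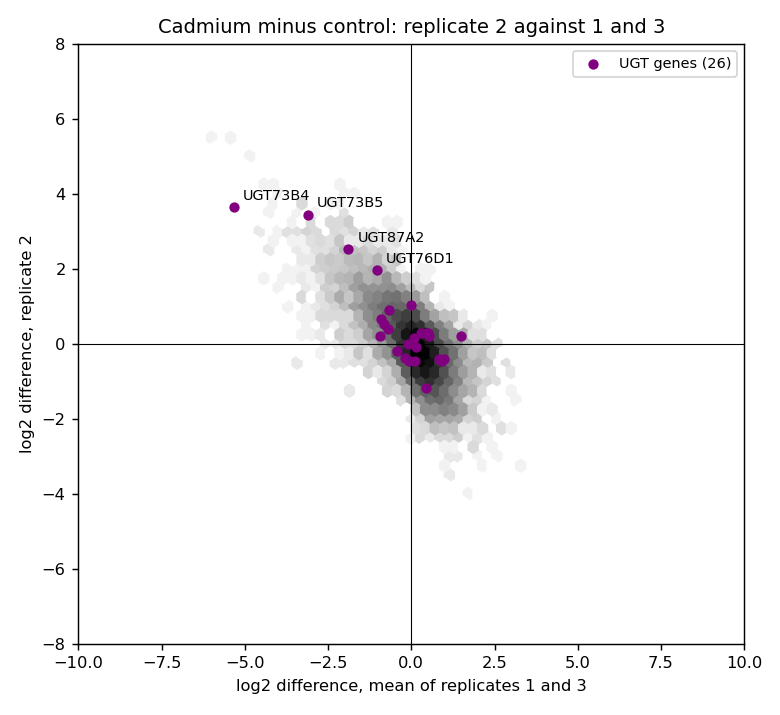
Log2 difference, cadmium minus control, in replicate 2 (vertical) against the mean of replicates 1 and 3 (horizontal), for the 26 tested UGT genes as points over all other tested probe sets in grey (darker where there are more, log scale). UGT73B4, UGT73B5, UGT87A2 and UGT76D1 lie at the upper left among the grey cells, and the other members gather near zero.

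The genes most like UGT73B5 over the 6 arrays, among the 25 other tested UGT genes, were UGT87A2 (Pearson r = 0.95 of log2 signals), UGT73B4 (r = 0.92) and UGT76D1 (r = 0.76). All of these share the same 6 arrays and their scaling. They also all passed the test of replicate 2 on these arrays, so the ranking restates those calls. The differences of the 26 genes correlated across genes with r = 0.89 between replicates 1 and 3, and with r = -0.82 and -0.85 between replicate 2 and replicates 1 and 3. UGT73B4 and UGT73B5, with the widest differences in every replicate, weigh most in these values, which were not computed without them. Among the tested UGT genes, the log2 signals of cadmium array 2 correlated with those of control arrays 1 and 3 at r = 0.77 and 0.73, and with its own control array at r = 0.50. Over all tested probe sets these were r = 0.85, 0.82 and 0.83, while cadmium array 2 correlated with cadmium arrays 1 and 3 at r = 0.66 each. The gap was smaller for control array 2. It correlated with cadmium arrays 1 and 3 at r = 0.76 and 0.73 among the UGT genes, and 0.82 and 0.84 over all tested probe sets. With control arrays 1 and 3 it gave r = 0.77 and 0.80 over all tested probe sets. The array correlations among the UGT genes include UGT73B4, UGT73B5, UGT87A2 and UGT76D1, which passed the test of replicate 2. They are not independent of those calls and were not computed without those genes. Among the UGT genes alone, arrays of the same label were not compared.

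Many UGT genes lie side by side. In the order of protein-coding genes in the RefSeq annotation of TAIR10.1, 24 of the 46 members fall into 10 runs of adjacent members, and 5 of these runs have at least 2 tested members, 11 genes in all. UGT73B4 and UGT73B5 had the same sign in each replicate. In the run of UGT71C5, UGT71C4 and UGT71C3, the middle gene differed in sign from the outer genes in each replicate (0.69, -0.39 and 0.98, against -0.74, 0.40 and -0.65 for UGT71C5 and -0.41, 0.91 and -0.93 for UGT71C3), none past the threshold. UGT85A7 and UGT85A2 were alike in replicates 1 and 3 and unlike in replicate 2 (0.28 and -1.17). UGT71C1 (-0.40, -0.38 and 0.05) and UGT71C2 (0.02, 0.16 and 0.12) differed in sign in replicates 1 and 2, each close to zero.

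**Figure D5:**
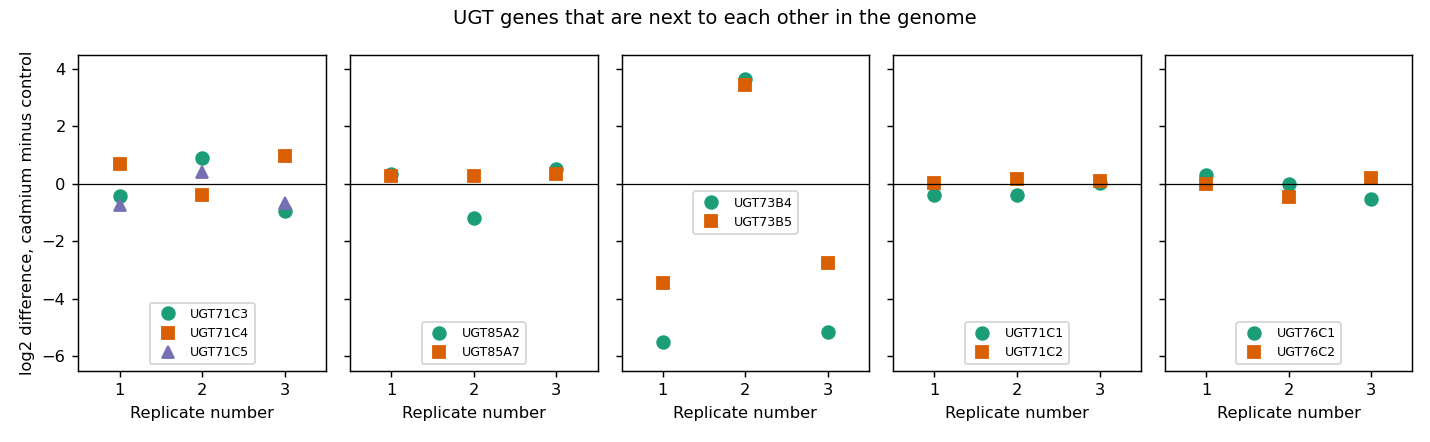
Log2 difference, cadmium minus control, in each replicate number for the 5 runs of adjacent UGT genes with at least 2 tested members, 1 panel a run and 1 marker a gene. UGT73B4 and UGT73B5 lie together far from zero, and UGT71C4 lies on the other side of zero from its neighbours UGT71C3 and UGT71C5.

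Genes around the glycosylation step were counted by lists of sugar donors, acceptor pathways and glucoside turnover. The beta-glucosidases (BGLU), which split glucosides again, had 9 of 20 genes tested, of which 2 were lower and 0 higher in replicates 1 and 3, where 3.24% and 1.29% of all probe sets were. BGLU27 had 61.1, 797 and 73.3 on the cadmium arrays and 712, 28.6 and 330.0 on the control arrays (-2.86 ± 0.43 SE, adjusted p = 0.0351, and 0.0418 with the floor). BGLU28, known from sulfur starvation, had 9.27, 435 and 36.2 on the cadmium arrays and 316, 25.2 and 535 on the control arrays. It was at least 6.62-fold lower in replicates 1 and 3, with an adjusted p of 0.0301 after the floor, and it passed the filter on mean signal only through its bright arrays. Both have the arrangement of UGT73B5, and with the floor the replicate 2 difference exceeded the others by at least 6.53 and 5.53 (adjusted p = 0.0198 and 0.0177; 8.93% of all probe sets passed that test as deposited). Over all 6 arrays their differences were -0.30 and -1.62.

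Among 3 named phenylpropanoid and flavonoid genes of 26 listed, CCR2, a cinnamoyl-CoA reductase, had 263, 1613 and 165 on the cadmium arrays and 3653, 397 and 1736 on the control arrays, and was 12.1-fold lower in replicates 1 and 3 (adjusted p = 0.0235), with 2.02 in replicate 2 and -1.72 over all 6 arrays. HCT and DFR did not pass. HCT, which makes the shikimate esters of the monolignol route, had 0.94 ± 0.32 SE (adjusted p = 0.161), with -1.60 in replicate 2. DFR, of anthocyanin synthesis, had 0.99 ± 0.54 SE (adjusted p = 0.315), with 0.44 in replicate 2. Over all 6 arrays HCT was at 0.09 and DFR at 0.81. Of the hormone genes 2 of 27 listed were tested and 0 passed. GH3.3, an auxin-conjugating enzyme, had the widest difference (-1.56 ± 2.90 SE, adjusted p = 0.770). All 4 of its signals in replicates 1 and 3 lie under 62.1, and it passed the filter on mean signal only through replicate 2. Of the UDP-sugar supply genes 1 of 40 listed was named, USP, a UDP-sugar pyrophosphorylase, at -0.16 ± 0.26 SE (adjusted p = 0.731). The lists of acyl transfer to glucosides, vacuolar ABC transporters and TGA factors had 0 named probe sets and are not analysed here. Over all 6 arrays 0 genes of these lists passed.

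In 1 of the 6 RNA quality controls the groups did not overlap. The 3' to 5' ratio of a ubiquitin control was 0.59, 0.37 and 0.38 (log2) on the cadmium arrays and 0.28, -0.02 and 0.08 on the control arrays. The difference in ratio has the same sign in each replicate, and its part in the results was not tested.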

How the data were processed

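Total RNA of roots was labelled with biotin and hybridised to ATH1 arrays (per the labels' protocols). Each probe set has 1 deposited intensity per array on a linear scale, made by the authors with MAS5, per the submitters' processing notes (version not given in the sources used here). Zero signals (7, all on control replicate 2) took the lowest positive signal of the array. Log2 signals of 15909 probe sets, without the 64 control probe sets and those with a mean under the 30th percentile, were fitted in limma 3.58.1 (R 4.3.3, lmFit, eBayes with an intensity trend) with two-sided moderated tests and Benjamini-Hochberg adjustment over all of them at 0.05. The 3 fits were all 6 arrays (4 residual degrees of freedom), replicates 1 and 3 (2), and the interaction of group with replicate 2 (2). Fits were run on simulated data with known changes. Every simulated array had independent noise of the spread of replicates 1 and 3, so that check does not cover the different scaling of replicate 2. Folds of dim genes were computed with signals floored at 62.1, the 30th percentile of all signals.

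Groups and replicate numbers came from titles; descriptions number the replicates differently but pair the same arrays. The array annotation names 1 gene for 13513 probe sets, several for 503 and none used here for 8730. Members and lists were chosen with earlier results of these data known. Every UGT gene was counted; signals on each array are given for those past a threshold and, in each family of 3 or more, the widest in each direction and the brightest, plus further members picked after their values were seen. The likeness to UGT73B5, the gene with the lowest p, was ranked over tested members. Alternatives were scaling, filter, floor, replicate block, array weights and leaving out arrays. Sequences were not used here.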

Additional observations from a re-analysis of the deposited data

Results flagged for a closer look

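Of the 26 tested UGT genes, 4 had a more positive difference in replicate 2 than in replicates 1 and 3 in limma's test of that difference. The excess was 6.55 for UGT73B5, 4.42 for UGT87A2 and 3.0 for UGT76D1 (log2, adjusted p = 0.0137, 0.0169 and 0.0225). For UGT73B4 it was 8.97 as deposited (adjusted p = 0.0158), but 3 of its signals lie under the floor of 62.1, and with the floor only a bound of at least 5.60 can be given. The share of all probe sets past the same test was 8.93%. Each group has 1 array in replicate 2, so the test assumes that these arrays vary like those of replicates 1 and 3. Estimated array weights were 0.12 (cadmium) and 0.20 (control) in replicate 2, against 1.32 to 3.56 for the others. They cannot check that assumption, because they come from the 6-array fit by group alone, where opposition by itself lowers a weight. The test was set up with the opposition already known, so its p-values are descriptive.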

How the results depend on the processing

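Over all 6 arrays, 0 UGT genes passed under each alternative except array weights, which gave UGT73B4, UGT73B5 and UGT87A2 (3 genes) and 1560 probe sets; the weights of the replicate 2 arrays were 0.12 (cadmium) and 0.20 (control), the others 1.32 to 3.56. Leaving out 1 array gave 0 UGT genes each time and 0 to 1 probe sets. In replicates 1 and 3 the counts were 2 to 4 UGT genes under scaling, filter and floor alternatives, 1 to 2 without 1 array, and 142 to 1266 probe sets without 1 array. UGT73B5 passed under each of these alternatives. The test of the difference gave 4 UGT genes under each scaling, filter and floor alternative and 3 to 4 without 1 array, with 916 probe sets without a filter and 313 to 2363 without 1 array. Cadmium replicates 1 and 3 and control replicate 3 moved these probe set counts by over 1.5 times.

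With a replicate block, 9 UGT genes (2 higher, 7 lower) and 3521 of 15909 probe sets (2012 higher, 1509 lower) passed in replicates 1 and 3. The UGT genes added were UGT71C4, UGT74D1, UGT71C5, UGT72E1, UGT72E2 and UGT76D1. Over all 6 arrays 0 passed with the block. Same-numbered arrays deviated from their group means with r = 0.11, -0.04 and 0.29 in replicates 1, 2 and 3. Cadmium array 1 with control array 3 gave r = -0.10, and cadmium array 3 with control array 1 gave r = -0.36. The deviations are from group means that include replicate 2. Titles and descriptions pair the same arrays, but the labels do not say what such arrays share. The main fits take no pairs, so the genes added by the block did not pass in replicates 1 and 3 there. Whether the numbers mark pairs was not tested.

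Signs turned only in genes that did not pass. With quantile normalization UGT71C2 was at -0.16 and UGT76C2 at -0.14, and with median centring these and UGT78D2 were at -0.19, -0.15 and -0.11. Without 1 array, the ranges that cross zero were -0.30 to 0.44 (UGT71C2), -1.45 to 0.11 (UGT71C3), -0.69 to 0.55 (UGT76B1), -0.33 to 0.12 (UGT76C1), -1.26 to 1.56 (UGT78D2), -0.26 to 0.22 (UGT80B1), -0.14 to 1.21 (UGT85A4) and -0.97 to 0.10 (UGT88A1). The causes were not tested.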
